A study of Mus musculus with 7 samples.

Results

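The genes described here are 8 genes of extracellular matrix turnover: the matrix metalloproteinases Mmp2, Mmp3, Mmp11 and Mmp14, and the tissue inhibitors of metalloproteinases Timp1, Timp2, Timp3 and Timp4. They were chosen by symbol, and all 8 were present among the 27998 genes of the deposited count matrices. The study profiled single cells of the stromal vascular fraction, the mix of progenitor, vessel, immune and other cells that remains when the lipid-filled adipocytes are removed from digested fat. The tissue was the inguinal subcutaneous fat depot, and every mouse was a C57BL/6N female. The young group held 4 libraries from mice aged 11 to 12 weeks, and the old group held 3 libraries from mice aged 18 months. Both groups shared strain, sex, depot and preparation, which was digestion with collagenase D and collagenase type I with DNase I added, followed by lysis of red blood cells. No treatment and no engineered allele is named for either group. Nothing in the labels tells if 1 mouse or a pool of mice gave a library, so every p-value measures the spread between these libraries, which may be partly technical.

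Matrix metalloproteinases are zinc-dependent proteases that cut collagens, proteoglycans and other matrix proteins, and most are made as inactive precursors that must be cleaved. Tissue inhibitors of metalloproteinases block the active enzymes, and Timp2 in addition bridges the Mmp2 precursor to membrane-bound Mmp14, which starts its activation. In adipose tissue these enzymes remodel the matrix around adipocytes and vessels as the tissue expands and regresses, and fibroblast-like progenitors are a known source of several of them.

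On the mm10 assembly (GRCm38, GENCODE M21 annotation) the 4 proteases lie apart. Mmp2 occupies chr8:92827291-92853420 on the plus strand, Mmp14 chr14:54431612-54445364 on the plus strand, and Mmp11 chr10:75923222-75936496 on the minus strand, where it overlaps Chchd10 of the opposite strand. Mmp3 lies at chr9:7445822-7455975 on the plus strand, in a run of 9 metalloproteinase genes that spans chr9:7272514-7699585. Of the inhibitors, 3 lie inside a synapsin gene of the opposite strand: Timp1 (chrX:20870166-20874735) in Syn1, Timp3 (chr10:86300372-86349506) in Syn3 and Timp4 (chr6:115241892-115252205) in Syn2. Timp2 (chr11:118301069-118355740, minus strand) overlaps Cep295nl of the same strand, so how reads of the shared part were divided is uncertain.

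The RefSeq promoter table for GRCm38.p6 held 7 of the 8 genes. The 100 bases before the RefSeq start are shown for 3 of them, because Mmp3 differed between progenitor subclasses in every library, Mmp14 was the member called between ages in progenitors, and Timp4 was a vessel gene with non-overlapping ages. All are written 5′ to 3′ on the gene's own strand, and capitals mark matches, on either strand, to an AP-1 site (TGA, then any base, then TCA), a TATA box (TATAAA) or a GC box (GGGCGG).
Mmp3, chr9:7445722-7445821, plus strand: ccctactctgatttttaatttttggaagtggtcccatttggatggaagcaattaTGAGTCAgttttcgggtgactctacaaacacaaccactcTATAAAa
Mmp14, chr14:54431498-54431597, plus strand: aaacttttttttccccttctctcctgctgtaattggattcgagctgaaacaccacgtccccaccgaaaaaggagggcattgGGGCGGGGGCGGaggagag
Timp4, chr6:115252206-115252305, minus strand: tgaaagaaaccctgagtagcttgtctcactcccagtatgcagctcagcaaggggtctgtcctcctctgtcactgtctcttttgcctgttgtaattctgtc
The Mmp3 window held 1 AP-1 site and 1 TATA box, the Mmp14 window held 2 adjacent GC boxes, and the Timp4 window held none of these letters. The AP-1 letters were in 2.73% of 32851 mouse promoter windows of this length, the TATA box in 5.56% and the GC box in 24.7%. Of the others, the Mmp11 window held 2 GC boxes and those of Timp1, Timp2 and Timp3 held 1 each. These matches describe sequence only.

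The 7 libraries held 45514 barcodes and between 52336665 and 99516882 unique molecular identifiers (UMIs, each counting 1 captured transcript). After filters on depth, mitochondrial share and doublets, 37372 cells remained, with a median of 9240 to 13785 UMIs in the young libraries and 5986 to 7955 in the old ones. Cell classes were rebuilt by clustering without 85 metalloproteinase, inhibitor, ADAM and ADAMTS genes and were named from marker lists, so each name means cells like that type. 33020 cells were named, among them 7471 young and 4470 old progenitor-like cells. All 9 progenitor markers, among them Pdgfra, Dcn and Col1a1, were detected in the progenitors of both ages, at a summed level of 63592 to 82396 CPM (UMIs of a gene per 1000000 UMIs) in young and 49146 to 64472 CPM in old libraries. Young replicate 1 stood apart from the other young libraries: its progenitors had a mean log2 level of immediate-early genes of 6.78, against 9.21 to 9.38 in the other young libraries and 8.94 to 9.74 in the old ones. Pairs of libraries shared 4 to 23 cell barcodes.

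Levels are given in CPM, the share of a class's UMIs in a library that came from the gene, as a mean over libraries. Of the 8 genes, 5 were high in progenitors and low in vessel cells, while Timp3 and Timp4 had the reverse order. Mmp2, a gelatinase that cuts denatured and basement membrane collagen, averaged 1322 CPM in progenitors, 38.7 in mural cells (pericytes and vascular smooth muscle cells), 38.2 in macrophages and 19.8 in endothelial cells. Mmp3, stromelysin 1, which cuts proteoglycans and activates other metalloproteinase precursors, averaged 934 CPM in progenitors and 9.23 to 13.4 CPM in those 3 classes. The membrane-anchored collagenase Mmp14 averaged 407 CPM in progenitors, 86.3 in mural cells, 31.1 in macrophages and 11.2 in endothelial cells.

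The inhibitor Timp2 followed the progenitor pattern but was also a macrophage gene, with 1900 CPM in progenitors, 612 in macrophages, 249 in mural cells and 41.2 in endothelial cells. Timp1, the inducible soluble inhibitor, averaged 69.4 CPM in progenitors and at most 10.6 CPM in the other 3 classes. Mmp11, stromelysin 3, which is activated inside the cell by furin-like enzymes, was low throughout, with 39.0 CPM in progenitors, 22.8 in mural cells, 14.6 in endothelial cells and 0.679 in macrophages.

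Timp3, the inhibitor that binds to the matrix, was highest in mural cells, at 3763 CPM, followed by 1968 CPM in endothelial cells and 963 CPM in progenitors, and it averaged 34.5 CPM in macrophages. Timp4, which is known from heart and fat, averaged 747 CPM in endothelial cells and 308 CPM in mural cells, against 2.55 CPM in progenitors and 5.29 CPM in macrophages. Within the mural class, Timp3 ranged from 4009 to 7295 CPM in pericytes and from 1507 to 2883 CPM in smooth muscle cells, over the libraries with at least 20 cells of each. Schwann-like cells, which reached 20 cells in 3 young libraries only, had 1283, 2059 and 1558 CPM of Timp3.

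**Figure D1:**
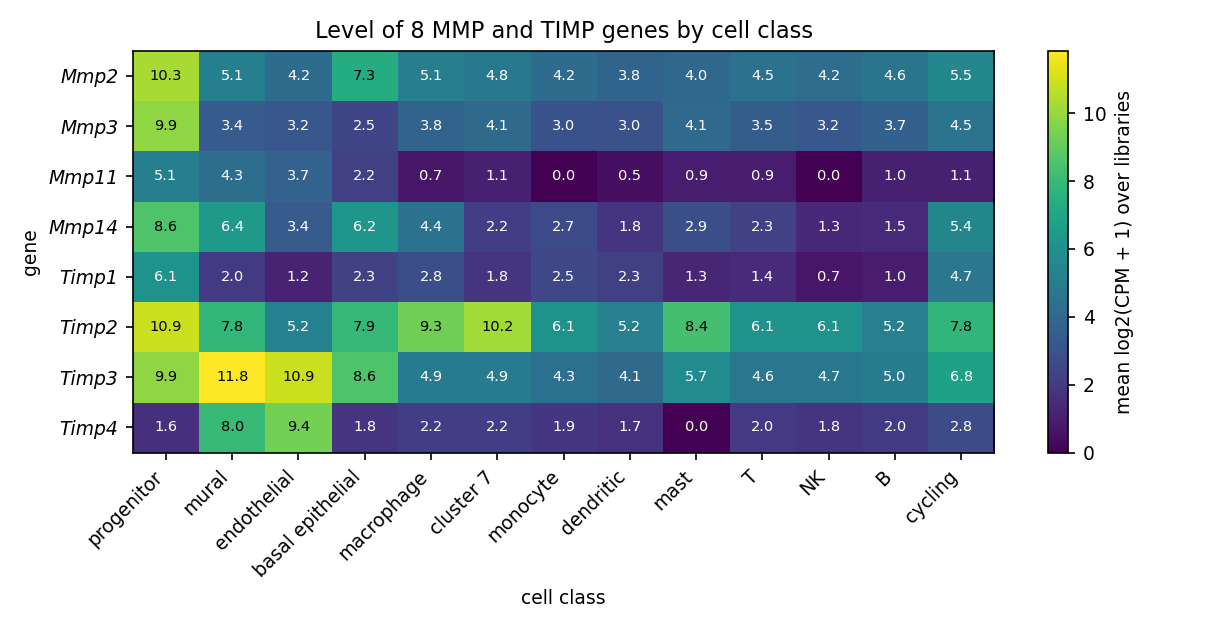
Heat map of the mean log2(CPM + 1) over libraries (colour and printed value) for the 8 genes in 13 cell classes, each class over the libraries with at least 20 of its cells. Mmp2, Mmp3, Mmp14, Timp1 and Timp2 are brightest in progenitors, Timp3 in mural cells and Timp4 in endothelial cells.

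Differences between classes of the same library were tested with an exact sign-flip permutation test on log2(CPM + 1), 2-sided, for 5 pairs of classes and 8 genes. With 7 libraries the smallest p it allows is 0.0156, and 34 of the 40 differences passed after Benjamini-Hochberg adjustment over them. Progenitors exceeded endothelial cells in 7 of 7 libraries for Mmp2 (by 6.13 on the log2 scale), Mmp3 (6.64), Mmp14 (5.20), Timp1 (4.88) and Timp2 (5.69), each with an exact p of 0.0156 and an adjusted p of 0.0195. Timp4 was lower in progenitors than in endothelial cells in all 7 libraries (mean log2 difference −7.74), and so was Timp3 (−1.03), with the same p-values. Between endothelial and mural cells, Timp4 was higher in endothelial cells in 7 of 7 libraries (log2 difference 1.35) and Timp3 was lower in 7 of 7 (−0.95). The 6 differences that did not pass were progenitor against macrophage for Timp4, endothelial against mural for Mmp3, Mmp11 and Timp1, and endothelial against macrophage for Mmp14 and Timp1.

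Across the 13 classes, 10209 genes were ranked by the correlation of their mean log2 level with that of each member, as a description over points that share libraries and depth. The closest genes were Fibin (r = 0.98) for Mmp2, Tac1 (0.99) and Lum (0.99) for Mmp3, P3h3 (0.96) for Mmp14, Rnase4 (0.95) for Timp2, Igfbp7 (0.99) and Adamts1 (0.99) for Timp3, and Tmem182 (0.99) for Timp4. Among the members, the highest r was 0.93, for Mmp11 and Timp3. Mmp2 and Mmp14 had r = 0.84, Timp3 and Timp4 0.74, and Timp2 and Timp4 −0.23, the lowest.

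In progenitors the question was whether old and young libraries differed in these genes. Mmp14 was lower in all old libraries than in all young ones, and Mmp2 was too, while the other 6 genes overlapped between ages. The share of all genes whose ages were separate was not counted, so this describes the members without setting them apart. In this class 17.3% of all 13945 genes tested had an unadjusted p under 0.05 in edgeR. Mmp14 stood at 581, 425, 463 and 548 CPM in young replicates 1 to 4 and at 309.8, 303 and 216 CPM in old replicates 1 to 3. The lowest young library exceeded the highest old one. Mmp14 fell by 0.86 on the log2 scale (SE 0.17, n = 4 young and 3 old, adjusted p = 0.0426, edgeR's quasi-likelihood test with Benjamini-Hochberg adjustment over 13945 genes), and it was the only member called of 8. In the same comparison 1.85% of all genes tested were called, 1.2% lower and 0.645% higher in old libraries. This call was near its threshold: leaving out any library except young replicate 1 raised the adjusted p to between 0.0617 and 0.156, and without the subclasses held by a single age it was 0.159 at a log2 change of −0.87.

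Mmp2 stood at 1567, 1529.9, 1472 and 1858 CPM in the young libraries and at 777, 852 and 1198 CPM in the old ones. The groups did not overlap, and old replicate 3 lay closest to the young range. The log2 change was −0.74 (SE 0.24) and did not pass in edgeR's quasi-likelihood test (adjusted p = 0.164). It passed in DESeq2 (adjusted p = 0.0446) and in edgeR without old replicate 3 (−1.05, adjusted p = 0.049).

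The other proteases were not called between ages in progenitors. Mmp3 stood at 1054, 950.3, 662 and 928 CPM in young and 1026, 921 and 999.5 CPM in old libraries (log2 change 0.15, SE 0.19, adjusted p = 0.758). Young replicate 3 was the lowest library and the old values lay inside the young range. Mmp11 ranged from 19.5 to 79.0 CPM in young and from 21.1 to 52.5 CPM in old libraries, so the ages overlapped widely.

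Among the inhibitors, Timp3 stood at 708, 701, 833 and 946 CPM in young and 1371, 1403 and 779.6 CPM in old progenitors. Old replicates 1 and 2 exceeded every young library, whereas old replicate 3 was inside the young range, and the change did not pass (log2 0.55, SE 0.22, adjusted p = 0.244). Timp2 ranged from 1606 to 2351 CPM in young and from 1529 to 1899.9 CPM in old libraries, with overlap (log2 −0.17, adjusted p = 0.659). Timp1 (47.4 to 98.4 CPM young, 47.1 to 108 CPM old) overlapped as well. Timp4 was low but counted, at 0.617 to 3.17 CPM in young and 1.43 to 5.67 CPM in old progenitors, from 16 to 118 UMIs a library. Its ages overlapped and the change did not pass (log2 1.51, SE 0.56, adjusted p = 0.207 in edgeR).

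**Figure D2:**
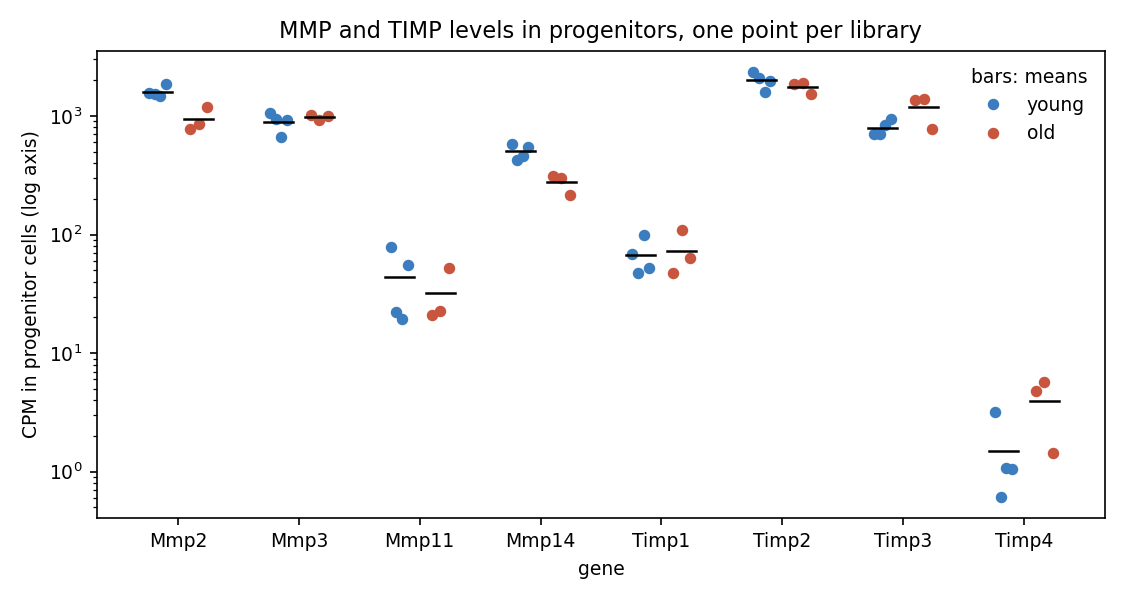
CPM in progenitor cells (log axis) for each of the 8 genes, with 1 point per library (4 young in blue, 3 old in red) and black bars at the group means. The ages are separate for Mmp2 and Mmp14 and overlap for the other 6 genes.

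The share of progenitors with at least 1 UMI gave the same order once depth was made equal. With every cell thinned to 3000 UMIs, Mmp14 was detected in 70.3% ± 3.86 of young progenitors (SD, n = 4) and 53.0% ± 6.64 of old ones (n = 3), and Mmp2 in 96.0% ± 1.16 and 85.4% ± 4.65. Each difference had an exact permutation p of 0.0286, the smallest that 35 splits allow, and an adjusted p of 0.114 over 8 genes, which did not pass. Without thinning the shares were 92.4% and 85.2% for Mmp14 and 97.3% and 95.6% for Mmp2. In T cells, taken as a class that should lack these genes, the thinned shares were 1.41% and 1.02% for Mmp14 and 10.5% and 3.87% for Mmp2. Thinning left out 470 of 7471 young and 184 of 4470 old progenitors, and 70 of 1018 young and 381 of 3356 old T cells. Median depth per library ranged from 8978.5 to 25713 UMIs in progenitors and from 4776 to 8960 in T cells.

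The progenitors fell into subclasses whose mix differed between libraries. Cells with markers of committed preadipocytes (Icam1, Cxcl14, Pparg) made up 41.5 to 43.7% of the old progenitors and at most 0.6% of the young ones. Cells with markers of matrix production (Postn, Cthrc1, Mest) made up 33.3 to 51.0% in young replicates 2 to 4, and 0.2% in young replicate 1 and at most 0.9% in the old libraries. Libraries were clustered together without batch correction (alignment of libraries). Whether these subclasses are distinct cells or like cells set apart by library or age was not tested. Interstitial progenitors (Dpp4, Pi16, Cd55), regulatory progenitors (F3, Fmo2, Gdf10) and Crabp1-led progenitors reached 20 cells in all 7 libraries.

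The proteases and inhibitors were divided among these subclasses. Mmp3 stood at 588, 284, 219 and 315 CPM in young and 96.5, 268 and 74.7 CPM in old interstitial progenitors, and at 1413, 1309.7, 1091 and 1078 CPM in young and 1562, 1506 and 1066 CPM in old regulatory progenitors. Every regulatory value exceeded every interstitial value. Timp2 had the opposite order, with 3199 to 4031 CPM in interstitial and 1004 to 1793 CPM in regulatory progenitors. In regulatory progenitors its ages did not overlap, at 1482 to 1793 CPM in young and 1004 to 1354 CPM in old libraries. It was not called there (log2 −0.47, adjusted p = 0.413 in edgeR). Timp3 averaged 1334 CPM in interstitial and 421 CPM in regulatory progenitors.

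For this pair of subclasses the log2 difference, interstitial minus regulatory, was −2.55 for Mmp3, 1.33 for Timp2, 1.72 for Timp3, 0.66 for Mmp2 and 0.38 for Mmp14, each with the same sign in 7 of 7 libraries. Each had an exact sign-flip permutation p of 0.0156, the smallest possible, and an adjusted p of 0.125 over the 40 subclass differences. None passed. Pairs that involve the committed or matrix-producing cells had 3 libraries, where the exact test cannot go below 0.25. Because most of the 40 differences had that limit, the adjustment could not have let any pass, so it decides nothing here. In the old libraries Mmp3 was 1597, 1385 and 1088 CPM in committed preadipocytes, above every interstitial value, and Timp3 was 1580.4, 1458 and 957 CPM there.

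**Figure D3:**
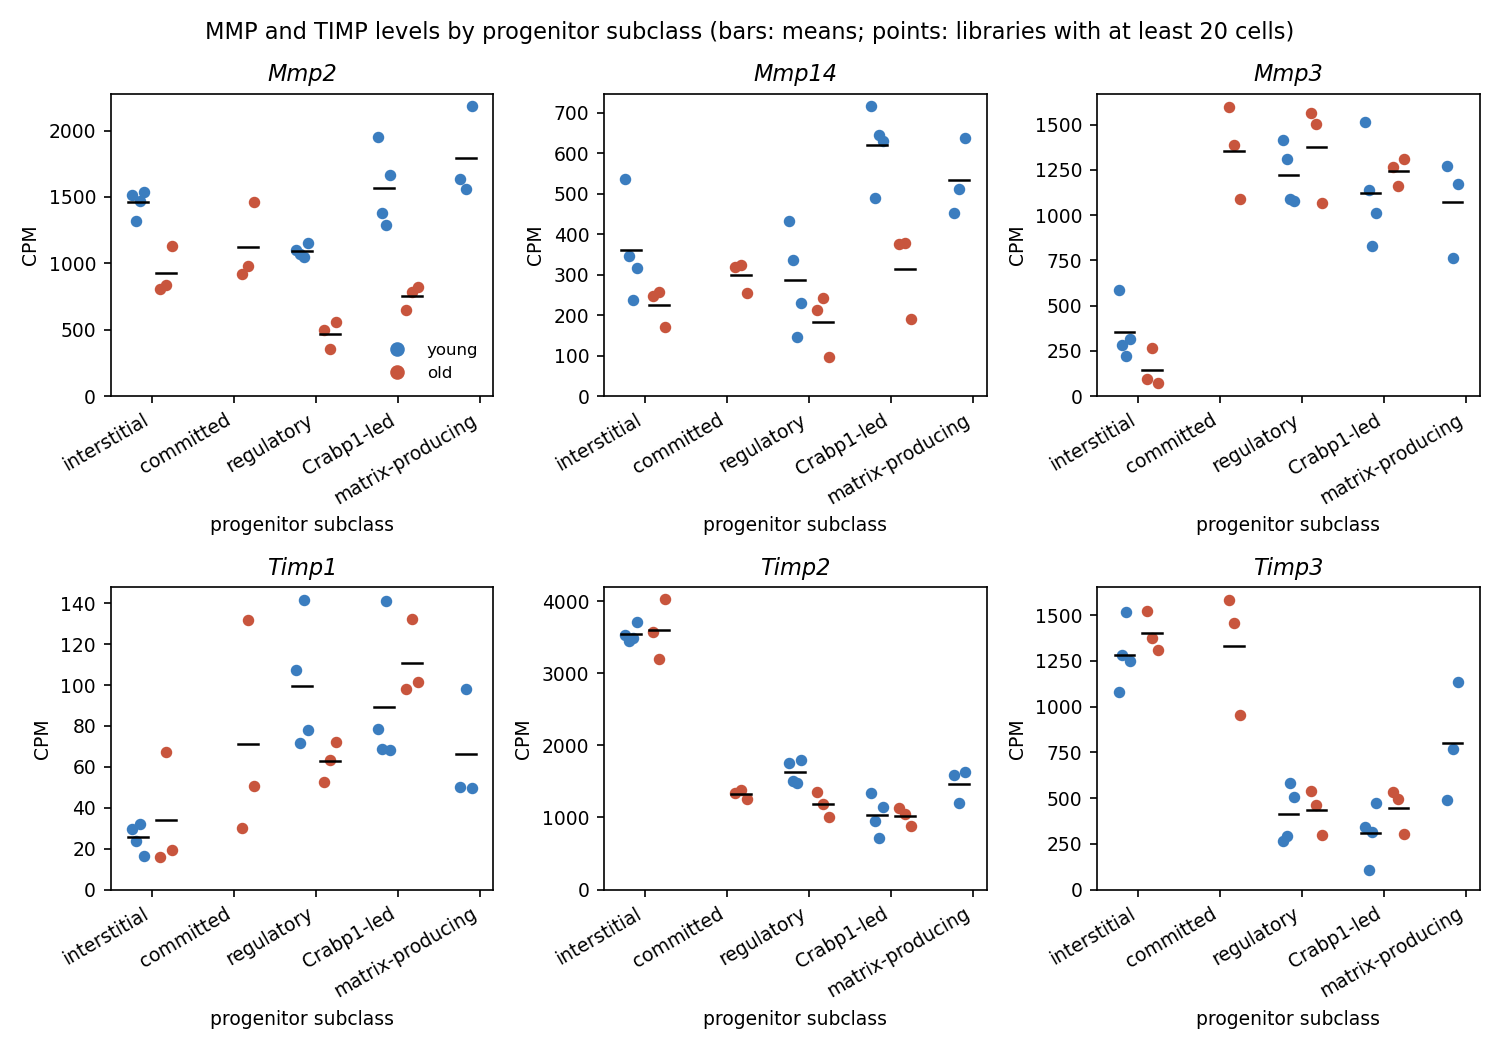
CPM of 6 genes in 5 progenitor subclasses, with 1 point per library of at least 20 cells (young blue, old red) and bars at the means; committed cells are shown for old libraries only and matrix-producing cells for young libraries only. Mmp3 is lowest, and Timp2 highest, in interstitial progenitors, and the old points of Mmp2 lie below the young ones in the 3 subclasses held by both ages.

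Within subclasses held by both ages, Mmp2 was again lower in the old libraries. In Crabp1-led progenitors it stood at 1948, 1378, 1292 and 1665 CPM in young and 645, 787 and 822 CPM in old libraries, with no overlap. It fell by 1.01 on the log2 scale (SE 0.22, adjusted p = 0.0499 in edgeR's quasi-likelihood test), the 1 member called of 8, where 1.86% of 11714 genes were called and 1.27% were lower. The call was lost with each library left out in turn (adjusted p between 0.0514 and 0.265).

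In regulatory progenitors Mmp2 stood at 1102, 1069, 1049 and 1156 CPM in young and 497, 356 and 560.1 CPM in old libraries. The groups were far apart, at a log2 change of −1.19 (SE 0.24), yet the change did not pass (adjusted p = 0.0616, with 0.528% of 8146 genes called). It passed without young replicate 1 (0.0421) or old replicate 3 (0.033). In interstitial progenitors the values were 1518, 1322, 1469 and 1538 CPM against 807, 838 and 1129.7 CPM, again with no overlap and without a call (log2 −0.63, adjusted p = 0.195, with 1.07% of 11360 genes called). Without old replicate 3 the change was −0.87 (adjusted p = 0.0417).

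A smaller group of other progenitors, held by 4 young and 2 old libraries, had a call for both a gelatinase and a stromelysin, where 0.924% of 10178 genes were called. Mmp2 fell by 1.71 (SE 0.28, adjusted p = 0.0356 in edgeR), from 1112, 1558, 1703 and 2003 CPM to 542 and 482 CPM. Mmp3 fell by 1.06 (SE 0.19, adjusted p = 0.0486), from 411, 413, 413 and 499 CPM to 217 and 218 CPM. Neither gene overlapped between ages there. Other members were separate by age there too, without a call. Timp3 was higher in old libraries (852 to 1559 CPM young, 2310 to 3394 CPM old, log2 1.18, adjusted p = 0.0572 in edgeR). Timp2 (log2 −0.65, adjusted p = 0.16) and Mmp14 (log2 −0.71, adjusted p = 0.162) were lower. Timp4 was not tested there. It stood at 1.66 to 4.64 CPM in young and 4.77 to 5.51 CPM in old libraries. These values rest on 4, 8, 8 and 6 UMIs in young and 13 and 8 UMIs in old libraries, too few to read a difference from. The share of all genes separate by age in this group was not counted. The Mmp2 call was lost without young replicates 3 or 4 (0.0803, 0.1) or old replicates 1 or 2 (0.345, 0.368). The Mmp3 call was lost without young replicates 2, 3 or 4 (0.0623, 0.0876, 0.125) or old replicates 1 or 2 (0.458, 0.406).

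Mmp14 was lower in old than in young libraries in Crabp1-led progenitors (717, 489, 646 and 630.5 CPM against 375, 379 and 189.5 CPM), with no overlap and no call (log2 −0.95, adjusted p = 0.0843). Its ages overlapped in interstitial progenitors (537, 346, 239 and 318 CPM against 247, 258 and 169.8 CPM, adjusted p = 0.343) and in regulatory progenitors (433, 336, 145 and 230.4 CPM against 212, 242 and 95.3 CPM, adjusted p = 0.591). In the young matrix-producing cells Mmp14 was 453, 513 and 637 CPM, and in the old committed preadipocytes 319, 324 and 256 CPM. The lowest young matrix-producing value exceeded the highest old committed value, and no test was made between these different cells.

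In endothelial cells none of the 8 members passed in edgeR's quasi-likelihood test, although 4 had an unadjusted p under 0.05 and 4 passed in DESeq2. Of all 11446 genes tested, 0.131% were called in edgeR and 9.3% had an unadjusted p under 0.05. The DESeq2 count over all genes, which was larger than that of edgeR, is given with the processing alternatives. Timp4 stood at 331, 355, 594 and 579 CPM in young and 961, 1096 and 1313 CPM in old libraries. All old libraries lay above all young ones, at a log2 change of 1.28 (SE 0.28, adjusted p = 0.127 in edgeR and 0.0021 in DESeq2). Mmp11 had the same direction, with 10.6, 10.7, 4.24 and 6.47 CPM in young and 25.1, 17.4 and 27.7 CPM in old libraries. Its groups did not overlap either (log2 1.47, SE 0.28, adjusted p = 0.0766 in edgeR and 0.0024 in DESeq2), although the mix of endothelial clusters differed between libraries.

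Mmp2 and Mmp14 were low in endothelial cells and lower in the old libraries. Mmp2 stood at 22.3 to 32.4 CPM in young and 5.28 to 11.6 CPM in old libraries (log2 −1.53, adjusted p = 0.0766), and Mmp14 at 9.71 to 23.2 CPM and 4.15 to 6.66 CPM (log2 −1.59, adjusted p = 0.0763). Without young replicate 1, Mmp2 passed (log2 −1.67, adjusted p = 0.0344). The 9 progenitor markers summed to 542 to 877 CPM in young and 340 to 545 CPM in old endothelial cells, and their part in these levels was not tested. Timp3 overlapped between ages, at 1222, 1884, 1791 and 2095 CPM in young and 2502, 2819 and 1465 CPM in old libraries (log2 0.37, adjusted p = 0.828).

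The Timp4 difference was also seen within endothelial clusters of like cells. Cluster 2, led by the capillary genes Gpihbp1, Cldn5 and Aqp1, had 558 ± 140.0 CPM (SD, n = 4) in young and 1172 ± 178 CPM (n = 3) in old libraries, with an exact permutation p of 0.0286, the smallest possible. It held 56.8 to 88.9% of the young and 87.5 to 92.6% of the old endothelial cells. Cluster 24, led by the arterial genes Sema3g and Sox17, had 274 CPM in 3 young and 739 CPM in 3 old libraries (exact permutation p = 0.1, the smallest possible). In cluster 21, led by the venous genes Vwf and Selp, 2 young libraries averaged 28.3 CPM. That cluster made up 3.04 to 26.8% of the young and 0.66 to 2.51% of the old endothelial cells. Over cluster 2 alone edgeR gave Timp4 a log2 change of 1.08 (adjusted p = 0.162). Mmp11 followed this direction in cluster 2, at 9.25 ± 5.13 CPM in young and 25.1 ± 6.06 CPM in old libraries (SD, n = 4 and 3, exact permutation p = 0.0286), with a log2 change of 1.33 in edgeR (adjusted p = 0.157). In cluster 24 it had the opposite direction, at 9.36 CPM in 3 young and 4.35 CPM in 3 old libraries (exact permutation p = 0.2), from at most 13 UMIs a library. In cluster 21 it averaged 3.15 CPM in 2 young libraries. The 9 genes of mature adipocytes were all detected in endothelial cells, summing to 234 to 1428 CPM in young and 371 to 635 CPM in old libraries, so their ranges overlapped.

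In mural cells Timp4 stood at 127, 268, 114 and 167 CPM in young and 487, 558 and 437 CPM in old libraries. The groups were separate, at a log2 change of 1.61 (SE 0.31), without a call in edgeR (adjusted p = 0.159). It passed in DESeq2 (adjusted p = 0.0016) and in edgeR without young replicate 2 (1.86, adjusted p = 0.0355). The class mixed its cell types unequally: smooth muscle cells numbered 124, 3, 42 and 93 of 413, 44, 68 and 169 mural cells in the young libraries and 21, 10 and 9 of 112, 73 and 47 in the old ones. In pericytes alone Timp4 was 59.4, 315, 311 and 179 CPM in young and 527, 712 and 667 CPM in old libraries, again with no overlap and no call (log2 1.70, SE 0.46, adjusted p = 0.252 in edgeR, with 0.0% of 4441 genes called). In the whole mural class none of the 6 members tested passed in edgeR, and 3 of them had an unadjusted p under 0.05. Of all 6894 genes tested in that class, 0 (0.0%) were called, 583 had an unadjusted p under 0.05 and 39 were called by DESeq2. Endothelial markers summed to 359 to 1071 CPM in young and 838 to 1141 CPM in old mural cells, and their part in the Timp4 level was not tested. Timp3 overlapped between ages, at 2959, 4128, 3256 and 3574 CPM against 3896, 5613 and 2913 CPM.

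**Figure D4:**
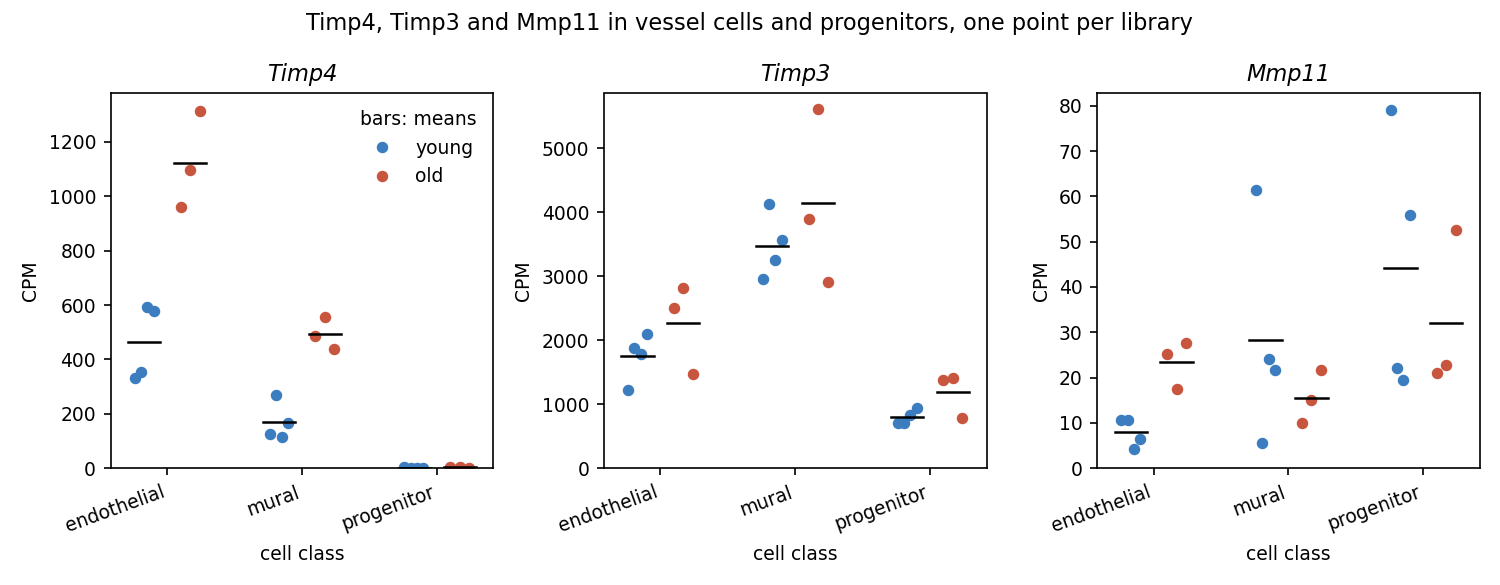
CPM of Timp4, Timp3 and Mmp11 in endothelial cells, mural cells and progenitors, with 1 point per library (4 young in blue, 3 old in red) and bars at the means. Old points of Timp4 lie above the young points in endothelial and mural cells, and Timp3 overlaps between ages in both.

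Mmp14 in mural cells had overlapping ages. It stood at 111, 83.8, 41.1 and 65.1 CPM in young and 104, 126 and 72.3 CPM in old libraries (log2 0.47, SE 0.30, adjusted p = 0.758). The difference between progenitors and mural cells in their age effect on Mmp14 was −1.35 on the log2 scale. Its exact permutation p was 0.0286, the smallest possible, with an adjusted p of 0.326 over the 40 such differences. None of the 40 passed. At this floor none could pass unless most of the 40 reached it, so the test cannot decide whether age effects differ between classes.

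In macrophages Mmp2 was the 1 member called of 7 tested, where 0.299% of 10715 genes were called and 0.0747% were lower. It stood at 68.6, 44.8, 58.3 and 46.8 CPM in young and 16.6, 18.1 and 14.4 CPM in old libraries, with no overlap. It fell by 1.70 on the log2 scale (SE 0.19, adjusted p = 0.0205 in edgeR's quasi-likelihood test). The call was lost without young replicate 3 (0.0843), young replicate 4 (0.0521), old replicate 1 (0.101), old replicate 2 (0.0742) or old replicate 3 (0.0997).

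The class was made of clusters whose shares differed between libraries. Cluster 27, led by H2-M2, Dnase1l3 and Acp5, held 61.9% of the macrophages of young replicate 1 and 2.31 to 16.7% elsewhere, and Mmp2 ranged there from 58.5 to 129 CPM over both ages. In cluster 5, led by Pf4, Mgl2 and C1qb, Mmp2 was 45.3, 49.2 and 47.6 CPM in young replicates 2 to 4 and 13.1, 15.4 and 9.87 CPM in the old libraries. Young replicate 1, with 48 cells and 3 Mmp2 UMIs in that cluster, stood at 8.04 CPM, so the ages overlapped in cluster 5 through that library. Mmp14 also sat in cluster 27, at 135 to 180.4 CPM in young and 81.1 to 193 CPM in old libraries, against 1.97 to 6.38 CPM in cluster 5.

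Mmp2 was called in 2 further immune classes as well. In cluster 7, a macrophage cluster led by Cd209f, Fcna, Lyve1 and Folr2, it fell by 2.17 (SE 0.33, adjusted p = 0.0193 in edgeR, 0.296% of 10135 genes called), from 41.1 to 73.1 CPM in young to 3.12 to 17.1 CPM in old libraries. In B cells it fell by 2.17 (SE 0.43, adjusted p = 0.0238, 0.87% of 7590 genes called), from 30.7 to 64.0 CPM in young to 3.78 to 17.8 CPM in old libraries. Neither class overlapped between ages, and old replicate 3 was lowest in both. Mmp2 was not called in T cells (log2 −1.85, adjusted p = 0.13 in edgeR), dendritic cells (−2.44, 0.0868), NK cells (−1.63, 0.755) or monocytes (−2.36, 0.382). The cluster 7 call was lost without young replicate 3 (0.0739), young replicate 4 (0.0636), old replicate 1 (0.117) or old replicate 2 (0.0548), and the B cell call without young replicates 2, 3 or 4 (0.102, 0.0756, 0.0688) or old replicate 1 (0.0543).

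Progenitor markers were also counted in these immune classes. The 9 progenitor markers summed to 829 to 1348 CPM in young and 470.0 to 729 CPM in old macrophages, and to 891 to 1653 CPM and 292 to 796 CPM in cluster 7. As a percentage of the progenitor level of the same library, Mmp2 in B cells was 1.96 to 4.18% in young and 0.316 to 2.09% in old libraries, and the marker list 1.08 to 1.75% and 0.294 to 1.45%. In T cells, Mmp2 was 1.95 to 3.49% and 0.269 to 2.04%, and the list 0.986 to 1.64% and 0.263 to 1.57%. The part of free progenitor RNA in the Mmp2 calls of immune classes was not tested.

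Timp1 in macrophages was at 1.51, 2.16, 4.45 and 2.89 CPM in young and 6.82, 15.1 and 41.0 CPM in old libraries. The groups did not overlap, and old replicate 3 was highest, but the change did not pass in edgeR (log2 2.95, SE 0.65, adjusted p = 0.156). It passed in DESeq2 (adjusted p = 0.0013), and with finer clusters, at Leiden resolution 2, the log2 change was 0.50. Timp4, at 0.405 to 13.6 CPM in young and 3.66 to 9.83 CPM in old macrophages, passed without young replicate 1 only (log2 2.55, adjusted p = 0.0426, against 1.11 and 0.999 with all libraries). The highest values were in sub-cluster 9.4, which is led by Mmp12, Spp1, Trem2 and Gpnmb, where Timp1 was 23.4, 34.4 and 180.3 CPM in the old libraries. That sub-cluster held 30, 111 and 52 cells of the old libraries and 4, 4, 0 and 1 cells of the young ones. Timp2 was not called, at 592 to 679 CPM in young and 530.1 to 631 CPM in old macrophages (log2 −0.14, adjusted p = 0.999), and at 1143 to 1404 CPM and 1020.4 to 1184 CPM in cluster 7 (log2 −0.20, adjusted p = 0.932).

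**Figure D5:**
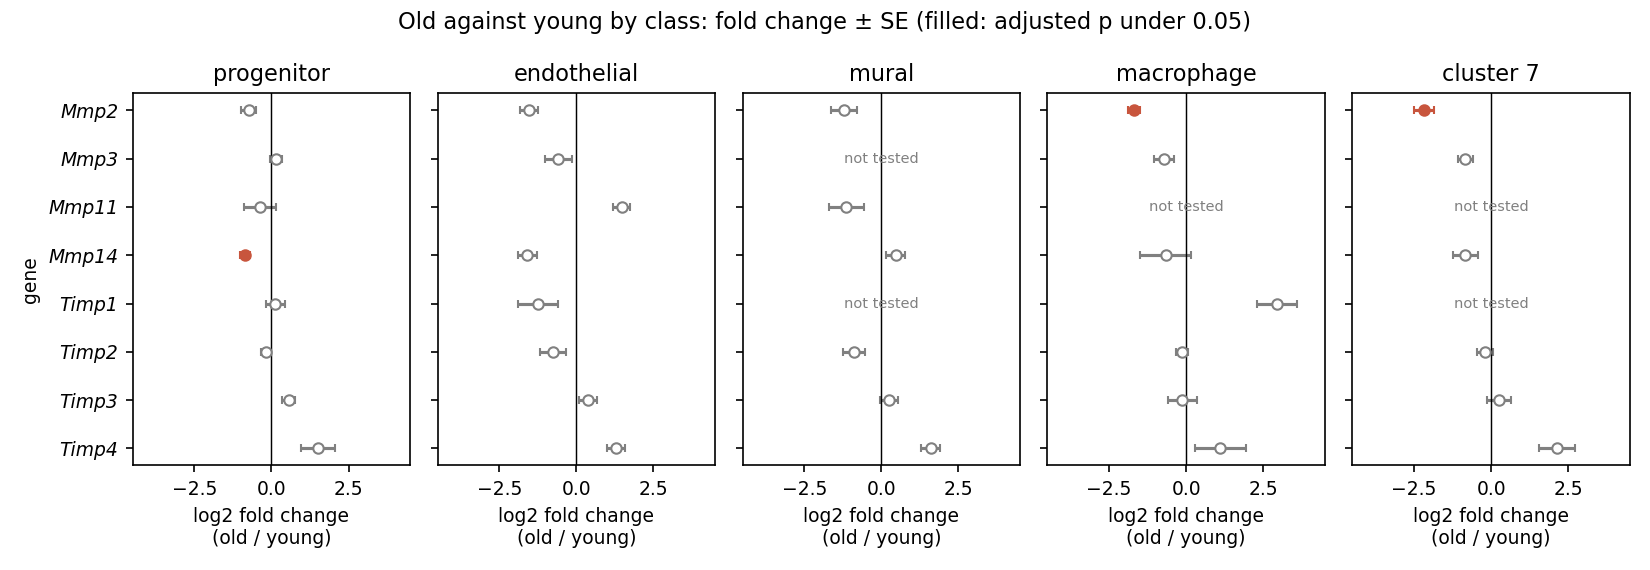
Log2 fold change, old over young, with its standard error, for the 8 genes in 5 cell classes; filled red points have an edgeR adjusted p under 0.05, open grey points do not, and genes below the expression filter are marked as not tested. The filled points are Mmp14 in progenitors and Mmp2 in macrophages and cluster 7.

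Over all kept cells, where a level depends on the mix of classes as well as on each class, Timp4 was the 1 member called, where 2.13% of 16519 genes were called and 0.938% were higher. It stood at 72.8, 45.0, 43.2 and 45.2 CPM in young and 179, 201 and 129 CPM in old libraries, with no overlap. It rose by 1.77 on the log2 scale (SE 0.19, adjusted p = 0.0166 in edgeR's quasi-likelihood test). The call was lost without young replicates 3 or 4 (0.0516, 0.0966) or old replicates 1, 2 or 3 (0.0711, 0.0721, 0.0569). Mmp14 over all cells was 199 to 303 CPM in young and 58.4 to 134 CPM in old libraries, at a log2 change of −1.37 that did not pass (adjusted p = 0.0536). Without young replicate 1 it passed (−1.52, adjusted p = 0.0224), as did Mmp2 (−1.62, adjusted p = 0.0129, against −1.35 and 0.104 with all libraries).

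Of 71 tested genes in 5 lists of genes that work with these members, 4 fell and none rose in progenitors, which is 5.63% against 1.85% of all genes tested. Among the other metalloproteinases, 8 of 19 were tested, 1 fell and none rose, with a median log2 change of −0.55 against 0.00 over all genes tested and −0.02 over the 8 members. The gene that fell was Mmp16, a membrane-type metalloproteinase (9.34 to 16.3 CPM in young, 2.70 to 4.14 CPM in old, log2 −2.08, adjusted p = 0.0109 in edgeR). Among 21 tested ADAMTS and ADAMTS-like genes, Adamts2, which cuts the amino propeptide from fibrillar procollagens, fell by 1.13 (395 to 514 CPM in young, 173 to 241 CPM in old, adjusted p = 0.0219). Adamts17 fell as well, by 3.46 (adjusted p = 0.0337), from at most 8.65 CPM.

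Adam22, an ADAM protein without protease activity, was the 1 of 10 tested ADAM genes that fell in progenitors, by 1.61 (adjusted p = 0.014 in edgeR). In endothelial cells it rose by 2.12 (2.45 to 4.67 CPM in young, 10.8 to 18.0 CPM in old, adjusted p = 0.039). None of 11 tested genes of plasminogen activation and serpins and none of 21 tested activators, receptors and uptake genes passed in progenitors in edgeR, with 1 and 4 at an unadjusted p under 0.05, where 17.3% of all 13945 genes had one. The most abundant genes of these lists in progenitors were Serpinf1 (1441 CPM), the collagen chaperone Serpinh1 (1326 CPM), the tetraspanin Cd63 (1258 CPM) and the endocytic receptor Lrp1 (690.4 CPM). In endothelial cells Thbs1, which binds matrix and Lrp1, rose by 1.83 (32.5 to 60.2 CPM in young, 107 to 192 CPM in old, adjusted p = 0.039). With Adam22 it made 2 of 55 tested listed genes called there (3.64%, against 0.131% of all genes).

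The listed genes were also counted within subclasses and over all cells. In interstitial progenitors 3 of 60 fell and 1 rose, where 1.07% of all genes were called in edgeR. Adam23, an ADAM protein without protease activity, fell by 1.41 (91.7 to 144 CPM in young, 34.5 to 47.0 CPM in old, adjusted p = 0.0101), and Adam22 (−0.96, adjusted p = 0.0329) and Adamts2 (−1.14, adjusted p = 0.0197) fell too. Adamtsl3, an ADAMTS-like protein without a protease domain, rose by 1.02 (16.8 to 26.5 CPM in young, 43.0 to 50.6 CPM in old, adjusted p = 0.0344). Adamts2 was the 1 of 53 that fell in regulatory progenitors (−1.11, adjusted p = 0.0376), which is 1.89% against 0.528% of all genes. Mmp16 (−1.95, adjusted p = 0.0051) and Adam22 (−2.68, adjusted p = 0.0149) were the 2 of 64 that fell in Crabp1-led progenitors, which is 3.12% against 1.86% of all genes. Over all cells 3 of 78 fell and 2 rose, which is 6.41% against 2.13% of all genes. Mmp16 (−2.58, adjusted p = 0.0369), Adamts17 (−3.22, adjusted p = 0.0332) and Adamts7 (−1.60, adjusted p = 0.0332) fell, and Mmp12 and Mmp8 rose.

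Of the neighbours of Mmp3 in its chromosome 9 run, Mmp12, Mmp13 and Mmp8 were highest in immune cells and Mmp27 in progenitors, while Mmp10, Mmp20 and Mmp7 averaged at most 0.611 CPM in any class and Mmp1b had no UMI. Mmp12, macrophage elastase, averaged 226 CPM in macrophages, and over all cells it rose from 1.70 to 7.58 CPM in young to 19.3 to 107 CPM in old libraries (log2 3.76, adjusted p = 0.0359 in edgeR). Within macrophages its change did not pass (log2 1.66, adjusted p = 0.894 in edgeR). Mmp8, the neutrophil collagenase, averaged 792 CPM in neutrophils and rose over all cells by 3.88 (adjusted p = 0.0475 in edgeR). Neutrophils numbered 13, 13, 2 and 9 in the young and 65, 42 and 38 in the old libraries. The part of the cell mix in these 2 all-cell changes was not tested. Mmp13 averaged 26.7 CPM in macrophages. Mmp27 shared the progenitor pattern of Mmp3, at 16.4 CPM.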

How the data were processed

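Single-cell 3′ libraries were prepared with the 10x Genomics v3 chemistry, per the labels' protocols, and counted with Cell Ranger 4.0.0 on the mm10 assembly, per the submitters' processing notes. Values as deposited are raw UMI counts per gene and barcode, filtered to barcodes by the authors. The gene models used for counting are not given in the sources used here. The members and gene lists were chosen with earlier results of these data known.

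Barcodes with at least 500 UMIs, 300 genes and at most 15% mitochondrial UMIs were kept. The cells with the highest Scrublet scores were then removed as doublets. Their share was preset at 0.8% per 1000 barcodes of a library (2.51 to 7.34% per library), so it is not a detected doublet rate. Cells of all libraries were clustered together, without batch correction, with scanpy 1.11.5 (2000 variable genes, 30 components, 15 neighbours, Leiden resolution 1) and named from markers. A cluster needed a marker score of at least 4, 2 above the next class. Counts were summed per library and class with at least 20 cells, and tested with edgeR 4.0.16 (filterByExpr, TMM, quasi-likelihood, 2-sided, threshold 0.05 after Benjamini-Hochberg adjustment over all genes tested in the class). The code was tested on simulated data. Single values used exact permutation tests, with a pseudocount of 1 CPM for log levels. The naming rule took all members, the listed genes that passed in progenitors, endothelial cells, mural cells or macrophages, and otherwise the 2 most abundant genes per list and class, printed here for progenitors only. Listed genes that passed in subclasses or over all cells were named beyond that rule, after their values were seen. Free RNA adds counts in every class of droplet data. DESeq2 1.42.0, RLE size factors, other filters, other clusterings, equal depth, a replicate block and leaving out each library were alternatives.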

Additional observations from a re-analysis of the deposited data

Results flagged for a closer look

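In 61 groups of 4 libraries, 4 had a library far from the other 3, where chance gives about 1 in 20. Timp2 in endothelial cells of young replicate 1 stood at 101 CPM, its gap to the next library being 0.873 of the group's range. Timp3 in macrophages of young replicate 1 stood at 67.1 CPM (0.903 of the range). Timp4 over all kept cells of young replicate 1 stood at 72.8 CPM (0.933 of the range), which was still below every old library. Timp1 in Crabp1-led progenitors of young replicate 3 stood at 141 CPM (0.859 of the range). Of the 4, 3 were in young replicate 1. A count of 4 in 61 is near the share that chance gives, so these flags are not read as a trait of that library.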

How the results depend on the processing

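Of 705 alternative fold changes for 48 member results, 612 kept direction and side of the threshold, 54 lost a call, 30 gained one and 9 changed sign. The sign changes named below also cover levels and shares. Members called by class moved as follows. With a replicate block, progenitors had 0, cluster 7 had 0 and Crabp1-led and other progenitors 0 each, and Mmp14 in progenitors was −0.80 (adjusted p = 0.223). The deviations of same-numbered libraries had correlations of −0.010, 0.021 and 0.0085. These values cannot show whether the replicate numbers mark a pairing by design. DESeq2 called 2 members in progenitors (Mmp2 at −0.74), 4 in endothelial cells, 1 in mural cells, 2 in macrophages, 3 over all cells, 1 in interstitial, 1 in regulatory and 2 in Crabp1-led progenitors. With no expression filter the counts were 4 in endothelial cells, 1 in mural cells, 2 in macrophages, 2 in cluster 7 and 1 in regulatory progenitors. Timp4 in endothelial cells was 1.29 in DESeq2 and 1.29 with no filter. Other progenitors, with 2 members called, had 1 with RLE size factors or doublets kept. With doublets kept, 1 member was called in endothelial cells, 2 in B cells and 0 in Crabp1-led progenitors. RLE size factors, the stricter cell filter and equal depth each gave 0 in Crabp1-led progenitors, and Leiden resolution 2 gave 0 in macrophages. Removing the committed and matrix-producing cells, chosen after seeing the data, gave 0 in progenitors, with Mmp14 at −0.87. The cause of these shifts was not tested.

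Leaving out each library gave 0 to 1 members called in progenitors, endothelial cells, mural cells, cluster 7, B cells, interstitial and regulatory progenitors, 0 to 0 in Crabp1-led progenitors, 0 to 2 in macrophages and 0 to 3 over all cells and in other progenitors. Mmp2 in progenitors ranged from −1.05 to −0.60 and Mmp14 from −0.95 to −0.77. Sign changes over these settings were in values without a call: Timp1 in progenitors (−0.18 to 0.39), Mmp14 (−1.08 to 0.77) and Timp3 (−0.47 to 0.28) in macrophages, Timp3 over all cells (−0.0695 to 0.43 in edgeR, −0.0703 to 0.48 as CPM), Mmp3 between endothelial and mural cells (−0.33 to 0.0275), and shares of progenitors with a UMI in percentage points for Mmp3 (−4.48 to 0.842), Mmp11 (−1.97 to 1.05) and Timp2 (−1.44 to 0.0304). Other sign changes were mural Timp3 with the stricter filter (−0.01), macrophage Timp2 at Leiden resolution 2 (0.0096), macrophage Timp3 with doublets kept (0.0233), Mmp3 (0.0279) and Timp1 (0.14) with classes weighted equally, and the unthinned Timp2 share (0.195).

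Counts of called genes over the whole table moved by more than 1.5 times in every class. Progenitors had 258, which became 33 without old replicate 1, 45 without old replicate 2, 132 and 88 without young replicates 3 and 4, 455 without young replicate 1, 87 with the block, 966 in DESeq2, 18 without the age-specific cells and 390 at Leiden resolution 2. Endothelial cells had 15, which became 0 without young replicate 4, 35 without young replicate 1, 0 with the block, 132 with no filter, 188 in DESeq2, 37 with doublets kept, 24 with the stricter filter and 26 at equal depth. Mural cells had 0, which became 20 without young replicate 2, 15 without old replicate 3, 122 with no filter and 39 in DESeq2. Macrophages had 32, which became 0 without young replicate 3 or old replicate 3, 122 without young replicate 1, 15 with the block, 89 with no filter, 147 in DESeq2, 16 with doublets kept and 1 at Leiden resolution 2. Cluster 7 had 30, which became 8 without old replicate 1, 50 without young replicate 1, 13 with the block, 225 with no filter and 71 in DESeq2. B cells had 66, which became 16 without young replicate 3, 212 without old replicate 3, 173 with the block, 301 with no filter and 110 in DESeq2. All cells had 352, which became 4 without young replicate 4, 1218 without young replicate 1, 2225 in DESeq2 and 96 with the stricter filter. Interstitial progenitors had 122 (22 without old replicate 1, 74 with the block, 225 with no filter, 359 in DESeq2), regulatory progenitors 43 (20 without old replicate 1, 72 without young replicate 1, 21 with the block, 220 with no filter, 104 in DESeq2), and Crabp1-led progenitors 218 (4 without old replicate 1, 393 without young replicate 1, 7 with the block, 392 with no filter, 591 in DESeq2). Other progenitors had 94 (0 without old replicate 1, 6 without old replicate 2, 16 and 3 without young replicates 3 and 4, 438 without young replicate 1, 145 without young replicate 2, 3 with the block, 363 with no filter, 344 in DESeq2). Depth limits values that rest on few UMIs, such as Timp4 in progenitors (16 to 118 UMIs a library).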

Other observations

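An unnamed cluster that carried both endothelial and pericyte markers (cluster 12) had Timp4 at 325 ± 86.6 CPM (SD, n = 4) in young and 864 ± 117 CPM (n = 3) in old libraries, with an exact permutation p of 0.0286, the smallest possible. Cluster 16, also unnamed and of low depth, had 458 ± 120 CPM and 594 ± 166 CPM (exact permutation p = 0.257). Mast cells had Timp2 at 138, 525 and 227 CPM in 3 young and 494 and 481 CPM in 2 old libraries. The 25 mast cells behind the value of 525 CPM, of young replicate 3, also had Mmp2 at 661 CPM and Timp3 at 602 CPM, against at most 48.7 and 68.9 CPM in the other libraries, and the part of progenitor RNA there was not tested. Basal epithelial cells had Mmp2 at 208, 188 and 177 CPM in 3 young and 130.0, 146 and 122 CPM in 3 old libraries, which was not called (log2 −0.52, adjusted p = 0.662 in edgeR's quasi-likelihood test). Hormone-sensing luminal cells had Mmp14 at 157, 83.8, 71.4 and 51.8 CPM in the young libraries. In the 1 old library with at least 20 cells, 1 UMI was counted, below the 51.4 CPM that 3 UMIs would give, so no difference between ages was detectable at this depth.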
